A study of Homo sapiens with 6 samples.

Results

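The genes described here are 10 enzymes and enzyme subunits that carry sulfur from methionine to cysteine and on to glutathione: CBS, CTH, GCLC, GCLM, GSS, GSR, CHAC1, MAT2A, AHCY and MTR. Their probe sets were taken as every probe set whose platform gene symbol named one of them, which gave 33 of the 49293 probe sets tested and covered 10 of 18239 genes. None of the 33 was annotated to a further gene. Some, among them the representing ones of CBS and MAT2A, have names ending in _s_at or _x_at. Whether these read other genes as well was not checked. The cells were MV4;11, an established human leukemia line with a rearranged MLL gene (KMT2A), grown in culture. One group had been given MI-389, an inhibitor that blocks the binding of menin to MLL, at 4 µM for 6 days, and the other the solvent DMSO alone for 6 days. Both groups carried 0.25% DMSO and had their medium changed on day 3 with compound or solvent renewed, and each consisted of 3 arrays of total RNA. The labels call the samples biological replicates of this 1 cell line without saying how cultures were kept apart, so the p-values measure only the variation among these 6 samples, and that variation may be technical.

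In the methionine cycle, MAT2A makes S-adenosylmethionine, AHCY hydrolyses the S-adenosylhomocysteine left after methyl transfer, and MTR methylates homocysteine back to methionine with cobalamin as cofactor. Homocysteine can instead leave the cycle through CBS, which joins it to serine, and CTH, which splits the resulting cystathionine to give cysteine; this route is called transsulfuration. Glutathione is then built by the glutamate-cysteine ligase, of which GCLC is the catalytic and GCLM the modifier subunit, and by GSS. GSR reduces oxidised glutathione, and CHAC1 degrades glutathione inside the cell. CTH and CHAC1 are known targets of the transcription factor ATF4, and GCLC and GCLM of NRF2, in many cell types.

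The DNA before the start of those members that fell most, and of both ligase subunits, is shown so that it can be set beside their values. The sequences are from RefSeq on GRCh38.p14, 250 bases 5′ to 3′ on the gene's own strand and ending just before an annotated transcript start. For CBS, which has several annotated starts, the most upstream is shown. Capitals mark matches to the CARE core (a C/EBP-ATF response element, TGATGNAA) or to the core of the antioxidant response element (TGACNNNGC).
CBS, chr21:43076378-43076627, minus strand: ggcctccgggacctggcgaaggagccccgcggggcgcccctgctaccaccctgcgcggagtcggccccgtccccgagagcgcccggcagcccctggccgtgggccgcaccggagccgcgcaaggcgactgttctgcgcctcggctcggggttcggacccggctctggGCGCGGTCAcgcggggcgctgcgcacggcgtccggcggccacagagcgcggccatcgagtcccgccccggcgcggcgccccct
CTH, chr1:70411018-70411267, plus strand: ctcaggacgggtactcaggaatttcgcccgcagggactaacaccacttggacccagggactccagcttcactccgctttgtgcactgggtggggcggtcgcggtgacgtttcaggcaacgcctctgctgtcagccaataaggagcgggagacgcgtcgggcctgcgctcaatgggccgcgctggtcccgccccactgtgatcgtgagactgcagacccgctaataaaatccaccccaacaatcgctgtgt
CHAC1, chr15:40953221-40953470, plus strand: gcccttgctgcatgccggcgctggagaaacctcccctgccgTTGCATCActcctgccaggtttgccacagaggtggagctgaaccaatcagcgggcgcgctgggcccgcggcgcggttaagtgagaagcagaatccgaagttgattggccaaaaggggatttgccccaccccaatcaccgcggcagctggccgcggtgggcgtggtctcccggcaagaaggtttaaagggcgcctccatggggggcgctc
GCLC, chr6:53545102-53545351, minus strand: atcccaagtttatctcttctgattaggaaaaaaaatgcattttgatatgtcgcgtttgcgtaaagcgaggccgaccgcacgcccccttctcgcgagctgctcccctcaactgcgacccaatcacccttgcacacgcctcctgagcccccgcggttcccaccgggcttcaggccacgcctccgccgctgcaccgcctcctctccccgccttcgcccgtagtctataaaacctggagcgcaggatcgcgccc
GCLM, chr1:93909431-93909680, minus strand: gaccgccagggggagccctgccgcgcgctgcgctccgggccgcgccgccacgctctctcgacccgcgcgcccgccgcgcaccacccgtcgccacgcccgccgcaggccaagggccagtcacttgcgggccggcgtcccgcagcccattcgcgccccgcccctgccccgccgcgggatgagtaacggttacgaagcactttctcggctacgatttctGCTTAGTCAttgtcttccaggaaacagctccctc

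Windows of 300 bases, from 250 before to 50 after a start, were searched on both strands for these motifs and for the E-box CACGTG. They were found in the RefSeq table for 8 of the 10 members, all but GSS and GSR. These 8 had 13 windows, since some have several annotated starts. CHAC1 held 1 CARE core on the reverse strand, beginning 209 bases before the start. Its window was the only 1 of the 13 with such a match, where 3.62% of all 35116 windows had one. The antioxidant element core matched on the reverse strand in 1 window each of 2 members, GCLM and CBS, and in 13.3% of all windows. It began 34 bases before the GCLM start and 83 bases before the most upstream CBS start. The E-box matched in 0 of the 13 windows of the 8 members and in 7.26% of all windows. The matches are of letters only, and no binding was measured.

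Expression was read as log2 values, 1 for each probe set and array. A gene was represented by its probe set with the highest mean over the 6 arrays. "Rose" and "fell" are used where the adjusted p from limma over all 18239 genes (or over all 49293 probe sets, where single probe sets are named) was under 0.05, with Benjamini-Hochberg adjustment. The table had no detection calls, so the controls of nonspecific sequence served as a guide to background: without the one of highest GC content they reached 5.49 on the log2 scale, and with it 7.87. The DMSO means of CTH (7.86) and CHAC1 (6.30) lie below the second value. Both group means of GCLC (6.17 and 7.01), GCLM (7.44 and 7.32), GSS (6.83 and 6.94) and MTR (7.41 and 7.38) do too. Several dimmer probe sets of CBS and MAT2A also lie below it. Where only the dimmer group lay below 5.49, a fold against that level is given for the members as "at least". Arrays correlated at 0.997 to 0.998 within groups and at 0.979 to 0.981 between groups across probe sets, which are not independent replicates. The 8 measured genes expected in MV4;11 cells were PTPRC, SPI1, FLT3, CSF1R, LYZ, CD4, FUT4 and KMT2A. Of these, 7 were above the nonspecific level in a group (all but SPI1). Of 10 markers of B, T, platelet, epithelial, fibroblast, liver and endothelial cells 0 were. The summed log2 level of the 8 expected genes was 65.1 to 67.1 on the DMSO arrays and 67.9 to 68.8 on the MI-389 arrays. That of the other markers was 39.99 to 40.3 and 39.9 to 40.1. Single genes of the 8 went opposite ways. The group means moved from 11.07 to 13.13 for LYZ and from 6.19 to 7.85 for CSF1R. Those of FLT3 moved from 11.01 to 9.59 and those of SPI1 from 4.66 to 3.99. Signs of RNA processing also moved with treatment. The log2 difference between the 3′ and 5′ control probe sets of GAPDH was -0.12 to -0.08 with DMSO and 0.01 to 0.05 with MI-389, and that of ACTB was 1.23 to 1.39 and 1.48 to 1.91. The hybridisation spike-ins were 0.25 higher on the MI-389 arrays. The part of these shifts in the small changes below was not tested.

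Of the 10 genes, 5 fell with MI-389 (CBS, CTH, CHAC1, MAT2A and AHCY), 2 rose (GCLC and GSR) and 3 did not pass the threshold (GCLM, GSS and MTR). Both enzymes of transsulfuration fell the furthest, with log2 changes of -5.77 for CBS and -3.69 for CTH. Of the ligase subunits GCLC rose and GCLM did not pass. Over all genes 34.1% passed the threshold, 15.7% lower and 18.4% higher, so that calls as such were common in this comparison. The median change of the 10 was -0.14, beside 0.02 for all genes tested. At the level of probe sets, 15 of the 33 fell, 6 rose and 12 did not pass, where 28% of all probe sets passed, 14% in each direction. The groups did not overlap in 7 of the 10 genes and 25 of the 33 probe sets, beside 45.3% of all genes and 40.4% of all probe sets. Both groups were under the nonspecific level for 10 of the 33, among them 3 of 4 for GCLC and 3 of 5 for MTR.

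**Figure D1:**
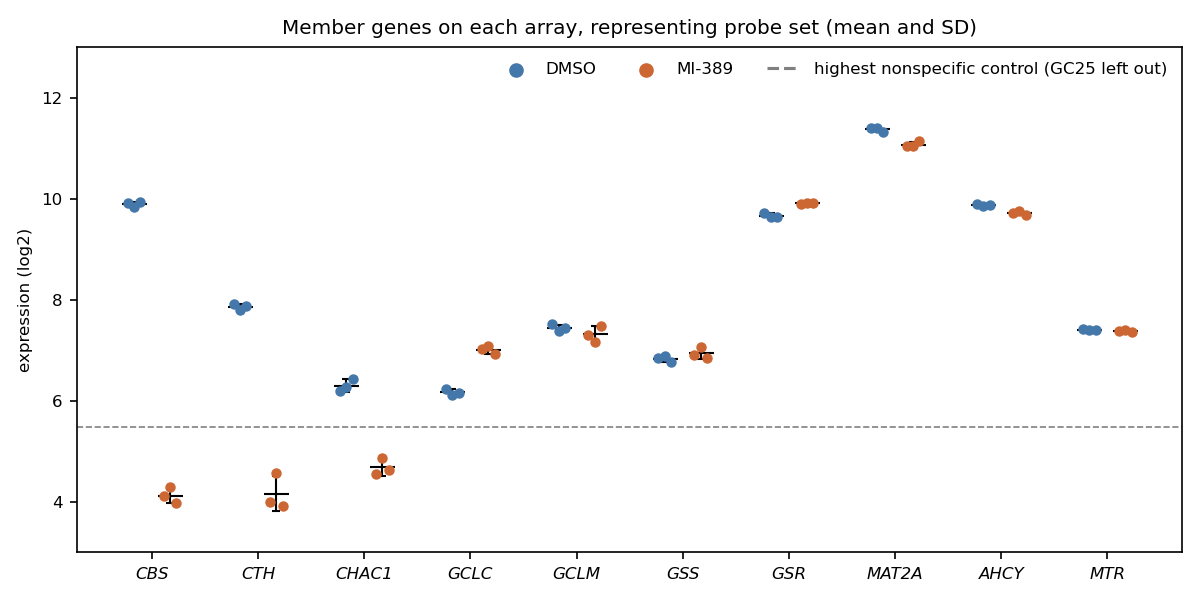
Log2 expression of the 10 genes (representing probe set) on each array, with 3 DMSO (blue) and 3 MI-389 (orange) points a gene, bars for the mean ± SD, and a dashed line at the nonspecific level of 5.49. CBS, CTH and CHAC1 drop from above the line to below it, while GCLC moves up and MTR stays within 7.36 to 7.43.

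CBS commits homocysteine to cysteine synthesis, and its transcript showed the largest fall of all 18239 genes by the fitted change. On its representing probe set (11744835_s_at) it stood at 9.91, 9.84 and 9.93 on the DMSO arrays and at 4.12, 4.29 and 3.97 on the MI-389 arrays. All MI-389 values lay within the range of the nonspecific controls and all DMSO values far above it, with no overlap. The means were 9.89 ± 0.05 and 4.13 ± 0.16 (SD, n = 3 each), a log2 change of -5.77 (SE 0.08, 95% interval -5.94 to -5.59, limma adjusted p = 6.73e-11). Set against 5.49, CBS was at least 21.2-fold lower; the measured ratio of 54.4 rests on a level in the background range, so its rank among the largest falls is not settled. In bulk RNA, fewer cells with the transcript and less transcript in each cell cannot be told apart.

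The 6 CBS probe sets all fell, by amounts that followed their level with DMSO. A second bright probe set went from 9.90 ± 0.06 to 3.99 ± 0.10 (SD, n = 3 each), a change of -5.92 and at least 21.4-fold lower against 5.49. The next in level went from 6.99 to 3.53, at least 2.84-fold lower, and the following ones from 6.53 to 3.60 (at least 2.06-fold) and from 6.04 to 4.24 (at least 1.47-fold). The dimmest stood at 4.44 and 3.75, both under 5.49, and changed by -0.69. With MI-389 all 6 means were between 3.53 and 4.24. The mean over the 6 probe sets gave -3.43, still past the threshold.

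CTH, which releases cysteine from cystathionine, was read by 1 probe set (11742278_a_at). Its values were 7.91, 7.79 and 7.88 with DMSO and 4.00, 4.57 and 3.92 with MI-389. The second MI-389 array was higher than the other two, though far below every DMSO array. The means of 7.86 ± 0.06 and 4.17 ± 0.36 (SD, n = 3 each) gave a log2 change of -3.69 (SE 0.14, interval -4.01 to -3.37, limma adjusted p = 3.26e-08). Against 5.49, CTH was at least 5.18-fold lower. Leaving out any 1 array kept the change between -3.90 and -3.57.

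Other genes of cysteine and sulfide metabolism, from a list of 10 measured genes, were split: 4 fell and 4 rose, with a median of -0.01. SLC7A11, the cystine carrier of the cystine-glutamate exchanger, stood at 8.48, 8.58 and 8.63 with DMSO and at 5.83, 5.80 and 6.16 with MI-389. It fell 6.21-fold (log2 change -2.64, SE 0.10), with both groups above 5.49. All 3 of its 3 probe sets were lower, with log2 changes from -2.64 to -0.68. SLC3A2, the partner chain of that exchanger, fell 3.90-fold with 7 of 7 probe sets lower, and GOT1, a cytosolic aspartate aminotransferase, fell 2.78-fold. Among those that rose were CSAD, which makes hypotaurine (0.77), and the sulfur-handling enzymes TST (0.40) and SUOX (0.28). CSAD had 1 of 3 probe sets higher and SUOX 1 of 2. SQOR, which oxidises sulfide, rose by 0.21, and ETHE1, the next enzyme on that route, fell by 0.24. Both chains of the cystine exchanger were thus lower in the same arrays as CBS and CTH. With spike-in centring the counts of this list were 1 higher and 5 lower.

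The catalytic subunit of the ligase, GCLC, rose. Its representing probe set (11754931_a_at) read 6.24, 6.11 and 6.15 with DMSO and 7.01, 7.09 and 6.93 with MI-389, with no overlap and little spread in either group. The log2 change was 0.84 (SE 0.06, interval 0.70 to 0.99, limma adjusted p = 3.4e-06), a 1.80-fold rise. Of the 3 dimmer probe sets, all with both group means under 5.49, 2 rose by 0.65 and 0.73. The dimmest changed by 0.06 (interval of the difference up to 0.20, adjusted p over all probe sets = 0.549 by limma). It is the only GCLC probe set with a plain _at name, the others ending in _a_at. Taking it for the gene ended the call, but its means were 4.03 and 4.09, in the background range.

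GCLM, the modifier subunit, did not pass the threshold. It read 7.51, 7.38 and 7.43 with DMSO and 7.30, 7.17 and 7.49 with MI-389, so the groups overlapped through the third MI-389 array. The change was -0.12 (SE 0.08, interval -0.30 to 0.06, limma adjusted p = 0.305). Within arrays, the difference of GCLC over GCLM moved by 0.97 on the log2 scale towards GCLC, and all 3 MI-389 arrays lay above all 3 DMSO arrays. This comparison was chosen after the values were seen. Its two-sided exact permutation p of 0.1, raw and adjusted alike over 2 such comparisons, is the smallest that 3 against 3 arrays can give.

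GSS, which adds glycine to complete glutathione, had probe sets that came out on either side of the threshold. The representing one read 6.84, 6.89 and 6.77 with DMSO and 6.90, 7.06 and 6.86 with MI-389, with overlap and a change of 0.11 (interval -0.05 to 0.26, limma adjusted p = 0.289). The other, nearly as bright, read 6.62, 6.58 and 6.63 against 6.84, 6.77 and 6.87, with no overlap, and rose by 0.22 (adjusted p over probe sets = 0.0149 by limma). The second probe set lost its call without DMSO replicate 2 (limma adjusted p = 0.0674). The mean of both rose by 0.16 (limma adjusted p = 0.0126). With spike-in centring the probe sets changed by -0.15 and -0.033, and neither was called.

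GSR, the reductase that keeps glutathione reduced, rose by a small amount. Its brighter probe set (11759080_at) read 9.72, 9.63 and 9.64 with DMSO and 9.89, 9.92 and 9.92 with MI-389. The arrays of one group lay clear of the other, and the change was 0.25 (SE 0.05, interval 0.13 to 0.37, limma adjusted p = 0.00496), or 1.19-fold. The dimmer rose by 0.18 (limma adjusted p over probe sets = 0.0397), a call lost with a common median (limma adjusted p = 0.0682), further quantile normalisation (0.0653), the replicate block (0.0831) and the trend and robust variance (0.0966). It was also lost when any array but MI-389 replicate 3 was left out (limma adjusted p up to 0.128). These changes were no larger than the 0.25 by which the spike-ins moved: under spike-in centring GSR changed by -0.0058 and was not called.

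CHAC1, which breaks glutathione down in the cytosol, fell on both of its probe sets. The representing one (11722407_a_at) read 6.19, 6.27 and 6.44 with DMSO and 4.54, 4.88 and 4.63 with MI-389, and the groups were far apart. The log2 change was -1.62 (SE 0.09, interval -1.83 to -1.41, limma adjusted p = 5.6e-07), at least 1.76-fold lower against 5.49. The other, with both groups under 5.49, changed by -1.30. CHAC2, a relative of CHAC1 with the same activity, read 7.91, 7.88 and 7.96 with DMSO and 7.83, 7.86 and 7.93 with MI-389. Its groups overlapped, and its log2 change was -0.04 (interval -0.17 to 0.08, limma adjusted p = 0.613).

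Of 11 measured genes of glutathione degradation and related peptidases, 2 fell and 1 rose, with a median of -0.02; with spike-in centring 8 fell and 0 rose (median -0.27), and without DMSO replicate 1, 2 rose. OPLAH, which opens the 5-oxoproline ring that glutathione breakdown leaves, fell from 7.34 ± 0.12 to 5.99 ± 0.06 (SD, n = 3 each), or 2.54-fold. CNDP2, a peptidase that splits cysteinylglycine, fell by 0.52 with 2 of 4 probe sets lower, and the aminopeptidase LAP3 rose by 0.41. CHAC1 and OPLAH, which act early and late in the same route, were both lower, and CHAC2 did not pass the threshold.

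**Figure D2:**
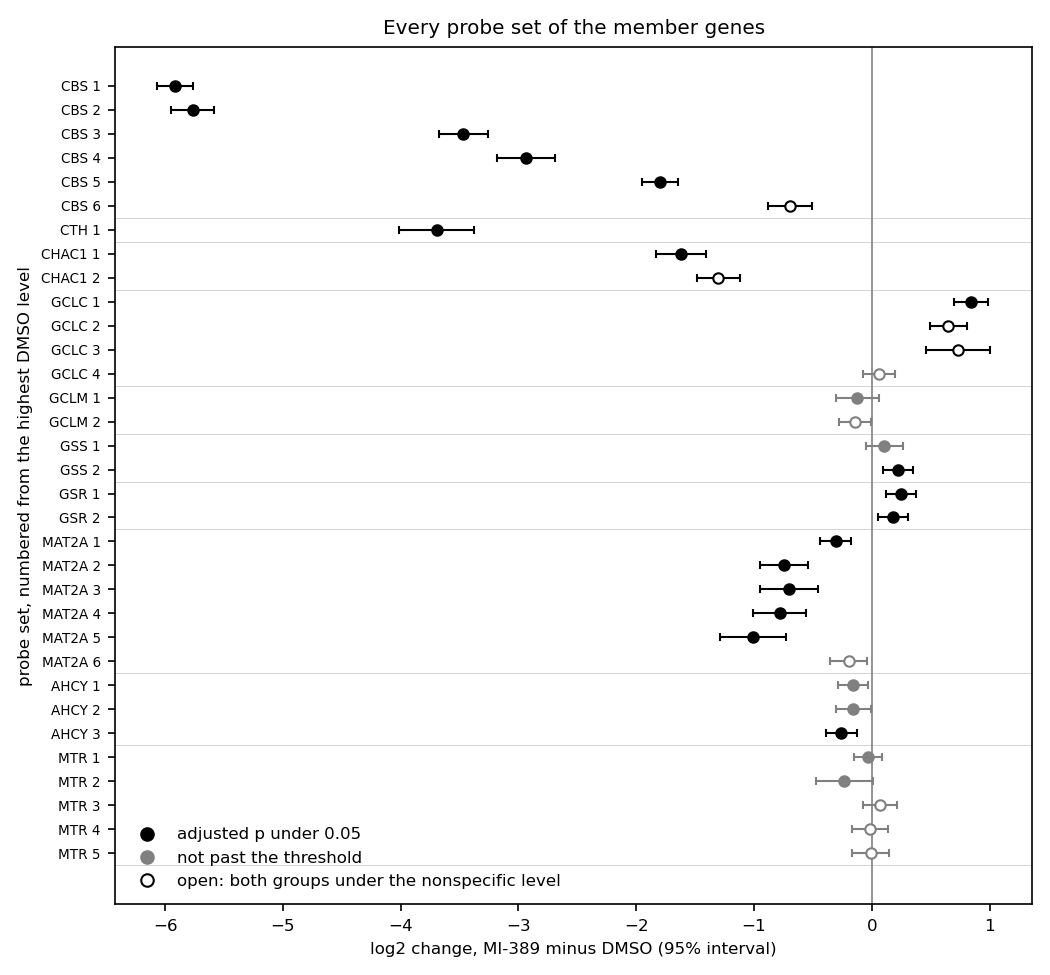
Log2 change (MI-389 minus DMSO) with its 95% interval for all 33 probe sets, numbered within each gene from the highest DMSO level; black points passed the threshold over all probe sets, grey did not, and open points had both groups under 5.49. The 6 CBS changes run from -5.92 to -0.69 in the order of the DMSO levels, and the brightest of MAT2A changes less than the 3 others with both groups above 5.49.

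MAT2A, which makes the methyl donor S-adenosylmethionine, fell modestly. Its representing and by far brightest probe set (11757376_s_at) read 11.39, 11.39 and 11.32 with DMSO and 11.03, 11.03 and 11.13 with MI-389, with no overlap. The log2 change was -0.30 (SE 0.06, interval -0.43 to -0.18, limma adjusted p = 0.00193). The 3 other probe sets with both groups above 5.49 fell further, with log2 changes of -0.78 to -0.70. One more, from 5.82 to 4.81, was at least 1.26-fold lower. The sixth, under 5.49 in both groups, changed by -0.19 and did not pass. With the mean over all probe sets the gene changed by -0.62, more than 1.5 times the value of the brightest. The within-array difference between the brightest probe set and the mean of those 3 moved by 0.44, all 3 MI-389 arrays lying above all 3 DMSO arrays (two-sided exact permutation p = 0.1, the smallest possible, chosen after the values were seen and one of the 2 comparisons named above). Which MAT2A transcripts each probe set reads was not analysed here.

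AHCY, which clears S-adenosylhomocysteine, lay at the edge of the threshold. Its representing probe set read 9.89, 9.85 and 9.87 with DMSO and 9.72, 9.75 and 9.67 with MI-389, without overlap. The change was -0.16 (SE 0.05, interval -0.28 to -0.04, limma adjusted p = 0.0448 over genes and 0.063 over probe sets). Leaving out any 1 of the 6 arrays ended the call, with changes of -0.18 to -0.14, and so did the replicate block (limma adjusted p = 0.1). The next in level, from 9.70 to 9.55, changed by -0.16 and did not pass (limma adjusted p over probe sets = 0.117). The dimmest, from 8.01 ± 0.06 to 7.75 ± 0.02 (SD, n = 3 each), fell by 0.26. It kept its call when any 1 array was left out (limma adjusted p up to 0.0364). The mean over the AHCY probe sets changed by -0.19 and passed (limma adjusted p = 0.00817).

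MTR, methionine synthase, did not pass the threshold as deposited. With spike-in centring, which takes 0.25 from every gene, it fell by 0.28 (limma adjusted p = 0.00473), so this call rests on the scaling. It read 7.43, 7.39 and 7.41 with DMSO and 7.38, 7.40 and 7.36 with MI-389, the groups overlapping, with a change of -0.03 (interval -0.15 to 0.08, limma adjusted p = 0.696). A second probe set above 5.49 changed by -0.23 with overlapping groups, and 3 more were under 5.49 in both groups. Of 9 measured genes that supply MTR with cobalamin or share its cofactor path, 1 rose and 2 fell (median -0.06), and 0 rose and 7 fell with spike-in centring (median -0.31). These counts turned to 0 higher without DMSO replicate 2, DMSO replicate 3 or MI-389 replicate 3, and to 1 lower without replicate 1 of either group, DMSO replicate 2 or MI-389 replicate 3. MMADHC and LMBRD1, which act in intracellular cobalamin traffic, fell by 0.34 and 0.24, and MMUT, the other cobalamin enzyme, rose by 0.31 with 3 of 3 probe sets higher.

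Of 16 further measured genes of the methionine cycle and of methylthioadenosine salvage, 3 rose and 3 fell, with a median of -0.02. Without DMSO replicate 2 or MI-389 replicate 2, 1 rose. MTAP, which starts methionine salvage, fell by 0.44 with 4 of 6 probe sets lower. Spermidine synthase SRM fell by 0.39, and AHCYL1, a relative of AHCY, by 0.36 with 6 of 6 probe sets lower. The salvage isomerase MRI1 rose by 0.60, AHCYL2 by 0.31 and AMD1, which makes decarboxylated S-adenosylmethionine for polyamine synthesis, by 0.16, with 3 of 7 AMD1 probe sets higher and changes of -0.25 to 0.46. All of these were small beside the falls of CBS and CTH. With spike-in centring the counts turned to 1 higher and 11 lower.

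Genes that use glutathione were mixed by family. Of 18 measured glutathione transferases 5 rose and 0 fell, with a median of 0.04, where 18.4% of all genes rose and 15.7% fell. GSTA4, 1 of the 5, went from 4.30 to 4.66, under 5.49 in both groups. Most of those not called also had both groups under 5.49, so the median says little about expressed transferases. With spike-in centring 3 rose and 10 fell, where the median of all genes is -0.23. Without MI-389 replicate 2, 1 transferase fell. MGST1, a membrane-bound transferase and peroxidase, rose 4.28-fold from 9.06 ± 0.06 to 11.2 ± 0.06 (SD, n = 3 each), on 3 of 3 probe sets. MGST3 rose 1.75-fold and GSTP1 1.69-fold, each with 2 of 2 probe sets higher. Of 13 peroxidases, glutaredoxins and related enzymes 2 rose and 5 fell, and 1 rose and 9 fell with spike-in centring (median -0.25). The cytosolic glutaredoxin GLRX rose 2.40-fold, from 8.65, 8.56 and 8.62 to 9.85, 9.87 and 9.88, while GLRX2, found mainly in mitochondria, fell 2.25-fold, from 9.39, 9.38 and 9.47 to 8.10, 8.32 and 8.31. GLRX5 rose by 0.25 with 2 of 3 probe sets higher. GLRX3 fell by 0.34 with 2 of 3 lower, and GPX7, with both groups under 5.49, changed by -0.51. GPX4, the peroxidase of membrane lipids, changed by -0.0057 (limma adjusted p = 0.956).

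Regulators and targets of NRF2 and the thioredoxin system were also mixed. Of 18 measured genes of the NRF2 list 4 rose and 5 fell (median 0.07). NFE2L2, which encodes NRF2, changed by -0.24 (limma adjusted p = 0.0194) with 1 of 2 probe sets lower. MAFG, its partner, fell by 0.54 on 4 of 4 probe sets, ABCC1, an exporter of glutathione conjugates, by 0.39, and NQO1 by 0.27. The repressor BACH1 rose by 0.41 with 1 of 3 probe sets higher, and TALDO1 and TKT of the pentose phosphate path rose by 0.39 and 0.37. With the spike-in centring 0 of this list rose and 9 fell. Of 11 thioredoxin and peroxiredoxin genes 3 rose, PRDX4 by 0.80, PRDX2 by 0.57 with 5 of 5 probe sets higher and PRDX6 by 0.21, and PRDX1 alone fell, by 0.25 (median 0.13). With spike-in centring 2 of these rose and 3 fell (median -0.13).

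**Figure D3:**
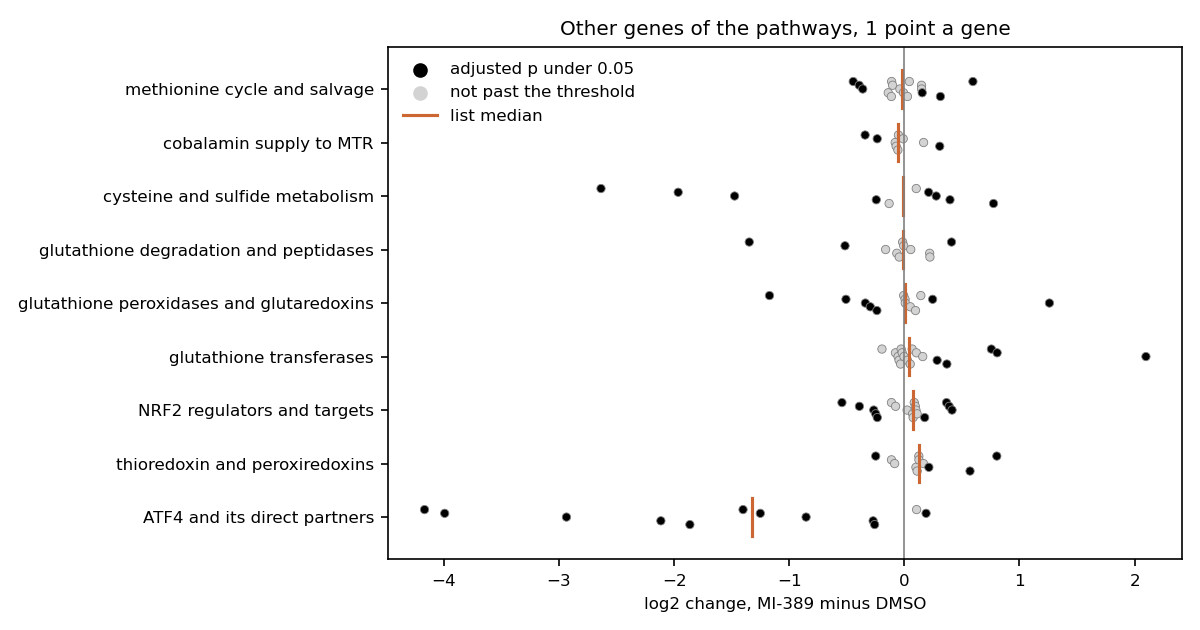
Log2 change (MI-389 minus DMSO) of each measured gene of 9 pathway lists, 1 point a gene, black where the adjusted p was under 0.05, with an orange bar at the list median. The ATF4 list lies to the left with a median of -1.33, SLC7A11 at -2.64 and MGST1 at 2.10 stand apart in their lists, and the other medians are between -0.06 and 0.13.

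Of 12 genes in a list of ATF4 and genes linked to it, 10 fell and 1 rose, with a median of -1.33, where 15.7% of all genes fell. NUPR1, among the 10, stood at 4.17 and 3.91, under 5.49 in both groups. ATF3, also among them, went from 5.49, at the nonspecific level, to 4.24. Of its 7 probe sets 2 were lower and 1 higher. The count of lower genes was 8 to 10 when single arrays were left out. The count of higher genes was 0 with spike-in centring and without DMSO replicate 1, DMSO replicate 3, MI-389 replicate 2 or MI-389 replicate 3. ATF4 itself went from 12.2 ± 0.01 to 10.8 ± 0.08 (SD, n = 3 each). The log2 changes were -4.17 for TRIB3 (-2.02 on its other probe set), -3.99 for ATF5 and -2.94 for ASNS. The kinase gene EIF2AK3 rose by 0.19 with 1 of 3 probe sets higher. EIF2AK4, the other kinase gene of the list, changed by 0.11 and did not pass (limma adjusted p = 0.331). TRIB3 is a pseudokinase, ATF5 a relative of ATF4, and ASNS makes asparagine. By the distance between profiles over the 6 arrays, each centred on its own mean, the genes most like CBS were OCSTAMP (root mean square distance 0.13 on the log2 scale), MEF2C (0.29), DLX2 (0.33), DDIT4 (0.66) and FCER2 (0.77). Their changes ran from -5.67 to -4.24, and all had MI-389 means of 5.31 or less, under 5.49. Against that level the falls were at least 14.4-fold for OCSTAMP, 32.7-fold for MEF2C, 14.7-fold for DLX2, 16.1-fold for DDIT4 and 8.89-fold for FCER2, and the fitted sizes and the distances rest on values in the background range. The measure ranks genes by the size of the fall, since treatment is the main difference among these arrays.

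**Figure D4:**
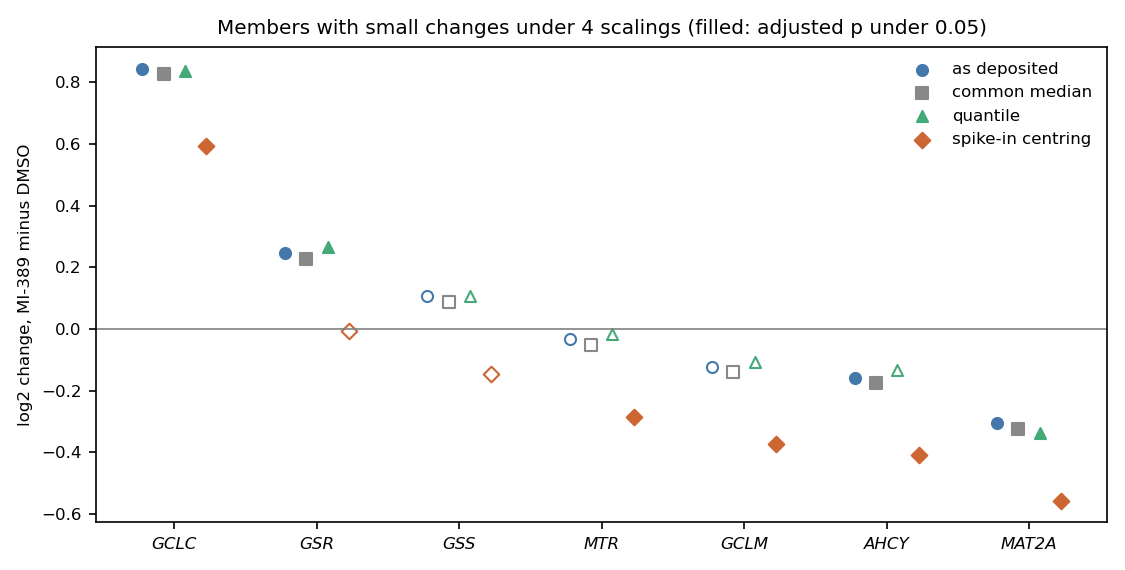
Log2 change of the 7 members other than CBS, CTH and CHAC1 under 4 scalings of the arrays, filled where the adjusted p was under 0.05. Centring on the spike-ins lowers every value by 0.25, which takes GSR to -0.0058 and GSS to -0.15 and leaves GCLC at 0.59.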

How the data were processed

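RNA of 6 MV4;11 samples was measured on Affymetrix arrays after 3′ labelling, per the labels' protocols. The deposited values are log2 expression, 1 per probe set and array; RMA and limma are named in the submitters' processing notes, with settings not given in the sources used here. Array medians were 4.47 to 4.50. RMA compresses dim values, so folds of dim genes are understated. Precision is limited by there being 3 arrays a group.

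Of 49386 probe sets, 93 controls were left out. Symbols came from the platform annotation, updated through Entrez IDs in RefSeq (GRCh38.p14; 45172 of 45253 one-gene probe sets matched). A gene took its brightest one-gene probe set. MI-389 was compared with DMSO in a two-sided limma fit (version 3.58.1, R 4.3.3; lmFit, then eBayes) without covariates, with Benjamini-Hochberg adjustment over all genes or probe sets and a threshold of 0.05. The fit was tested on simulated data. The members and lists were chosen with earlier results of these data known, so lists are described by counts and medians without a test. Of 124 list genes, 114 were measured. Named are all members, up to 3 genes called in each direction per list with the largest change, any gene a sentence on a list turns on, and the 5 nearest to CBS by profile. Alternatives were other scalings, a filter on dim features, a replicate block, other variance models, leaving out each array, other gene summaries and stricter thresholds.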

Additional observations from a re-analysis of the deposited data

Results flagged for a closer look

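The hybridisation spike-in probe sets, which stand outside the comparisons, were 0.25 higher on the log2 scale with MI-389: the mean of the 9 probe sets was 8.99 to 9.08 on the DMSO arrays and 9.26 to 9.36 on the MI-389 arrays. The rise of GSR (0.25) has this size, and those of GCLC (0.84) and MGST1 (2.10) exceed it.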

How the results depend on the processing

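Over the alternatives, 151 of 170 values of the member genes kept direction and side of the threshold. CBS, CTH and CHAC1 did so in every alternative run. Leaving out each array gave -5.85 to -5.69 for CBS, -3.90 to -3.57 for CTH, -1.71 to -1.55 for CHAC1, 0.81 to 0.89 for GCLC, 0.23 to 0.27 for GSR, -0.34 to -0.29 for MAT2A and -0.18 to -0.14 for AHCY, which lost its call in all 6. AHCY also lost it with further quantile normalisation (-0.13), the replicate block, plain _at probe sets chosen first and the 0.01 threshold (-0.16 each). Against a fold of 1.2 (limma treat), GSR (0.25), MAT2A (-0.30) and AHCY (-0.16) were not called; 4 member genes, 25 list genes, 2457 genes and 5346 probe sets passed. Taking GCLC's dim probe set with the plain _at name gave 0.061, not called, and the mean of probe sets called GSS (0.16).

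With spike-in centring, 12453 genes and 33091 probe sets passed, and 11.2% of called genes were higher against 53.9% as deposited. The centring takes 0.25 from every gene, by construction. GCLM (-0.37) and MTR (-0.28) were then called, and GSS (-0.15) and GSR (-0.0058) turned negative, as did probe sets of GCLC (-0.19), GSS (-0.033 and -0.15), GSR (-0.072 and -0.0058) and MTR (-0.19). One dim MTR probe set changed sign with array weights (0.0026) and lay at -0.061 to 0.058 when single arrays were left out, and another at -0.059 to 0.033. The labels do not say whether the replicate numbers pair the samples. Deviations of same-numbered arrays from their group means correlated at -0.18, 0.03 and -0.11. Deviations from a mean of 3 arrays are tied to one another, so these values cannot settle it. With the replicate block 5725 genes, 12781 probe sets and 6 of the 10 members passed, AHCY being the one lost.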
